A study of Mus musculus with 8 samples.

Results

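TGF-beta and BMP pathway genes were examined in sorted mouse skin tumour epithelium through 9 members chosen by symbol: the ligands Tgfb1, Tgfb2, Tgfb3, Bmp2, Bmp4 and Bmp7, the receptors Tgfbr1 and Tgfbr2, and the TGF-beta-induced matrix gene Tgfbi. Every probe set that the platform annotation gives a single symbol among these was taken, which made 22 of 45101 probe sets in one table of values and 16 of 45083 in the other. The series holds 8 arrays in 4 groups of 2. Cells were sorted for the epithelial antigen Epcam and against CD45, CD31 and CD140a. All tumours had been raised in the skin with DMBA, a carcinogen, and TPA, a tumour promoter, and all mice, controls included, received 5 doses of 2 mg tamoxifen. The Twist1 table holds controls of genotype Twist1fl/fl and a deletion group of genotype K14CreER:Twist1fl/fl. The Twist1/p53 table, from another array type, holds controls of genotype Twist1fl/fl:p53fl/fl and a deletion group of genotype K14CreER:Twist1fl/fl:p53fl/fl. CreER runs from the keratin 14 promoter of basal epithelial cells, so recombination is limited to cells with that promoter active and to their progeny, and the controls carry the floxed alleles without Cre. The mice were littermates of mixed strain background, and their age is not stated in the labels. The labels do not say that the 2 arrays of a group came from separate animals, so the p-values measure the spread between these arrays, which may be technical.

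TGF-beta ligands are secreted in a latent form, and once released they bind TGFBR2, which recruits and activates TGFBR1, which phosphorylates SMAD2 and SMAD3. BMP ligands use related receptors that phosphorylate SMAD1, SMAD5 and SMAD9. Both branches share SMAD4 and induce their own inhibitors. In the epidermis TGF-beta restrains keratinocyte growth and in carcinomas it can promote invasion, while BMPs act on hair follicle cycling and differentiation.

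The sorted cells carried the epithelial markers strongly: the mean log2 signal over 6 keratinocyte markers ran from 12.09 to 12.31 (Twist1 table) and from 11.20 to 11.52 (Twist1/p53 table). The mean over 8 leukocyte markers ran from 5.51 to 5.65 and from 4.59 to 4.91. Of these 8, 2 lay under the filter in each table, among them Ptprc, the gene of the leukocyte antigen CD45. The highest were Laptm5 (7.08 to 7.41, Twist1 table) and Cd68 (5.69 to 6.46, Twist1/p53 table). Fibroblast markers (mean of 7) read 6.53 and 5.83 against 6.19 and 6.47 after Twist1 deletion, and 6.14 and 6.25 against 6.06 and 5.12 after Twist1/p53 deletion (controls always first). Twist1 itself gave 5.20 and 7.18 without Cre in the Twist1 table but 3.81 and 3.90 with it (adjusted p = 0.500), and 6.15 and 6.04 against 4.82 and 5.01 with p53 deleted as well (log2 change -1.19, SE 0.14, adjusted p = 0.0413, not passing without either control array, at -1.13 and -1.24). The female-specific transcript Xist was high in the controls and low in the deletion arrays of both tables, so sex, the presence of Cre and the deletion cannot be told apart. In the Twist1 table alone, the mean poly-A spike-in signal was 8.22 and 9.14 without Cre but 9.49 and 10.53 with it, and the Gapdh signal at the 3' end minus that at the 5' end was 0.04 and 0.03 against 0.22 and 0.30. Their part in the results below was not tested.

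No member passed the test in either comparison (limma with an intensity trend, Benjamini-Hochberg adjusted p under 0.05 over all genes, 1 probe set per gene). In simulated data these fits recovered 0% of genes with a log2 change of 1. Not passing therefore does not show that a member was unchanged. In the Twist1 comparison 0.0344% of 14554 genes were called, and 2 of the 9 members had an unadjusted p under 0.05 beside 9.17% of all genes. In the Twist1/p53 comparison 1.80% of 13667 genes were called, and 3 of the 9 members had an unadjusted p under 0.05 beside 21.2% of all genes. After Twist1 deletion 6 members had lower means and 3 higher ones, whereas after Twist1/p53 deletion 3 were lower and 6 higher. Bmp7 crossed to the lower side in the first when its probe sets were averaged, and Bmp2 crossed to the higher side in the second with quantile normalization. Control and deletion arrays were apart, with no overlap, for 4 of the 9 members after Twist1 deletion, beside 42.5% of all genes, and for 8 of 9 after Twist1/p53 deletion, beside 54.3% of all genes. The counts over all genes hang on single arrays: when either control array was left out, limma called 0 genes in each comparison, with 523 and 559 (Twist1) and 1027 and 1141 (Twist1/p53) at an unadjusted p under 0.05. Without deletion array 1 or 2 the numbers of genes called were 56 and 40 after Twist1 deletion, and 3775 and 3363 after Twist1/p53 deletion.

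**Figure D1:**
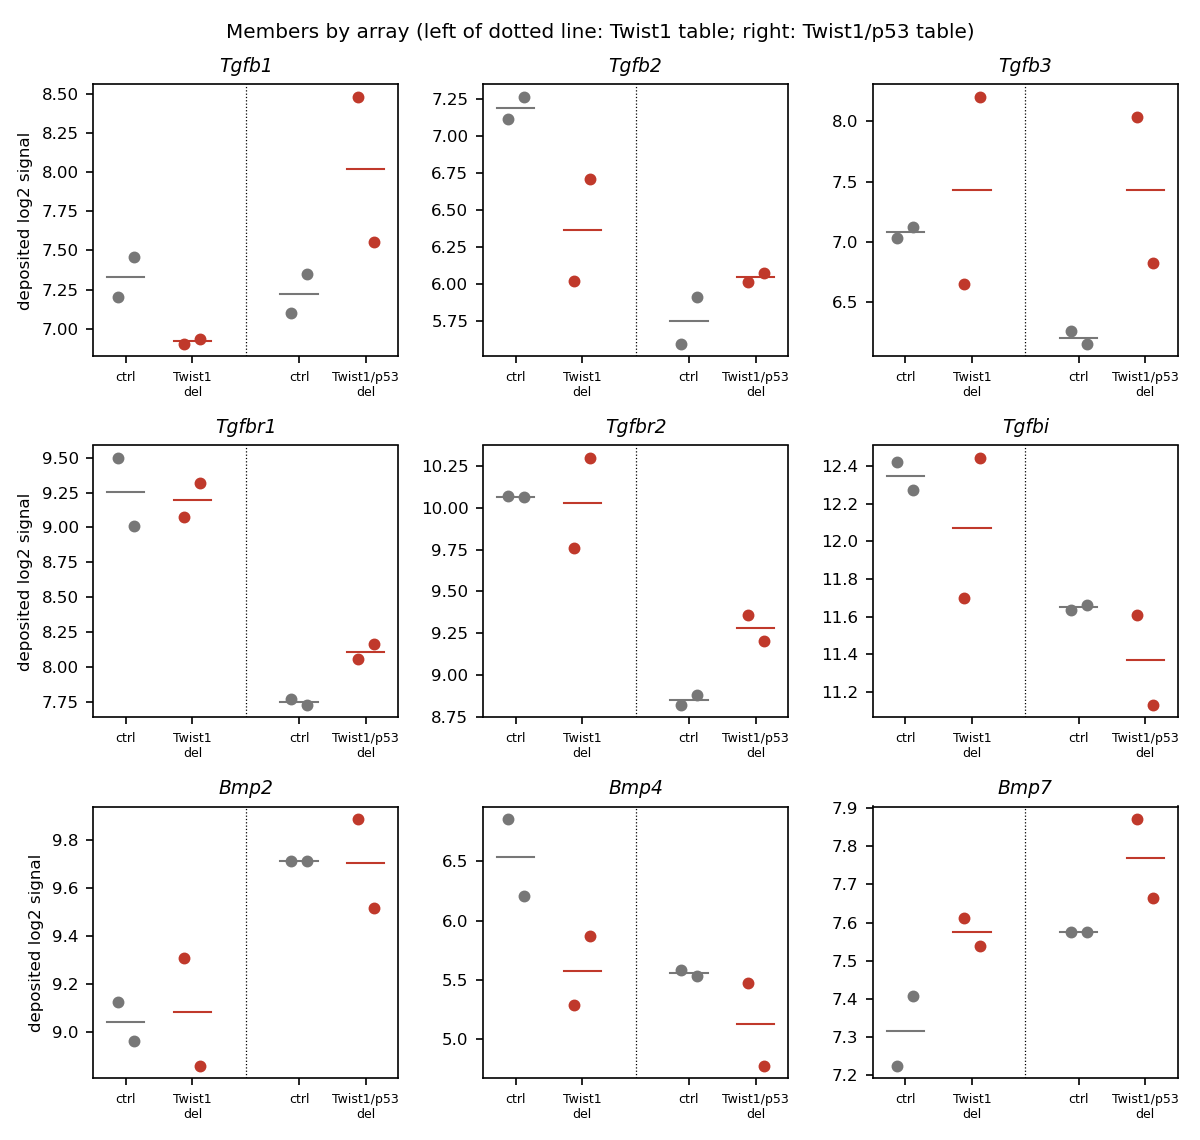
Deposited log2 signal (vertical axis, its range set for each gene) of the probe set that represents each member, 1 point per array, with controls in grey, deletion arrays in red and bars for the mean of 2 arrays. The tables lie on either side of the dotted line and their levels are not comparable. The deletion arrays of Tgfb3 lie at 6.65 and 8.20 in the Twist1 table and at 8.03 and 6.83 in the Twist1/p53 table.

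Probe set by probe set, 0 of the 21 tested in the Twist1 table and 0 of the 15 in the Twist1/p53 table passed (0.0416% and 1.72% of all probe sets were called). An unadjusted p under 0.05 was found for 7, all lower, and for 3, all higher, beside 9.10% and 20.1% of all probe sets. The 7 count some genes more than once: they lay in Tgfb2 (all 4 of its probe sets), Bmp7 and Bmp4. The 3 lay in Tgfb3, Tgfbr1 and Tgfbr2. Controls and deletion arrays were apart for 11 of 22 and 12 of 16, beside 41.6% and 52.7% of the probe sets past the filter. The member counts include the Tgfbr2 probe set under the filter, which was apart in the Twist1/p53 table only.

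Of the TGF-beta ligands, Tgfb2 had lower values after Twist1 deletion in each of its 4 probe sets, and none passed. TGF-beta 2 is a latent growth factor that hair follicle and epidermal cells also make. The probe set that represents the gene gave 7.11 and 7.26 without Cre but 6.02 and 6.71 with it, a log2 change of -0.82 (SE 0.28, n = 2 per group, adjusted p = 0.523). It was -0.48 without deletion array 1 and -1.17 without deletion array 2. The probe set 1450922_a_at had the lowest adjusted p of all member probe sets in this table, with 6.80 and 6.97 against 5.55 and 5.86 (-1.17, SE 0.20, adjusted p = 0.286). Both controls lay above both deletion arrays in these and in the other pair of probe sets, of which one read 7.19 and 7.15 against 6.11 and 6.24 and the other differed by -0.45 (SE 0.15). Of the 4 probe sets 3 were designed on the same sequence record, so they are not independent readings. As fewer expressing cells and less RNA per cell give the same signal in bulk RNA, they cannot be told apart here. In the Twist1/p53 table a single probe set is named Tgfb2, and its mean was higher after deletion, with 5.60 and 5.91 against 6.01 and 6.08 (0.29, SE 0.17, adjusted p = 0.405).

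Tgfb1, the ligand made most widely, also lay lower after Twist1 deletion and higher after Twist1/p53 deletion, without passing in either. It read 7.20 and 7.46 against 6.90 and 6.93 in the Twist1 table (-0.41, SE 0.18, adjusted p = 0.571). After deletion of both genes the values were 7.10 and 7.35 against 8.48 and 7.56 (0.79, SE 0.34, adjusted p = 0.282). Deletion array 1 holds most of this distance: without it the change was 0.33, and without deletion array 2 it was 1.26. A second probe set of the Twist1 table, named Tgfb1 as well, overlapped between the groups at 5.71 and 6.60 against 6.05 and 6.05.

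Tgfb3, the third isoform, varied more between the 2 deletion arrays of each table than any other member. Its Twist1 controls read 7.04 and 7.12 and the deletion arrays 6.65 and 8.20, one below and one above both controls (0.35, SE 0.52, adjusted p = 0.851). After Twist1/p53 deletion both arrays lay above both controls, at 8.03 and 6.83 against 6.26 and 6.16. This 2.34-fold difference was the largest of any member in that comparison (log2 change 1.22, SE 0.42, adjusted p = 0.207). The change was 0.62 without deletion array 1 and 1.83 without deletion array 2. Such fits assume that the lone deletion array varies as the controls do, so for them only the change is given. Over all probe sets of this table the SD of the difference was 0.18 between the 2 controls and 0.39 between the 2 deletion arrays. Most markers of fibroblasts and of muscle and pericytes had lower means after Twist1/p53 deletion, though not all. The mean over 7 fibroblast markers read 6.14 and 6.25 against 6.06 and 5.12. Of the 6 tested, 4 had lower means and 2 higher, with Lum called lower (-1.10, SE 0.11, adjusted p = 0.0321). The collagen gene Col1a1 read 10.10 and 10.33 against 8.55 and 6.84. The higher ones were the proteoglycan gene Dcn, at 5.04 and 4.92 against 7.81 and 5.85, and Col1a2 by 0.00248. Col1a2 was read there by a probe set at 4.21 to 4.31, near the filter level of 3.98, so its change says little. In the Twist1 table another probe set read it, at 7.41 to 8.53. The mean over 4 muscle and pericyte markers read 6.26 and 6.32 against 5.62 and 5.60, with 3 of them lower and 1 higher. The higher one was the actin gene Acta2, at 8.41 and 8.27 against 9.40 and 8.77. The pericyte gene Rgs5 was called lower, at 7.86 and 8.09 against 4.59 and 4.98 (-3.19, SE 0.20, adjusted p = 0.0142). The part of such cells in the Tgfb3 signal was not tested.

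**Figure D2:**
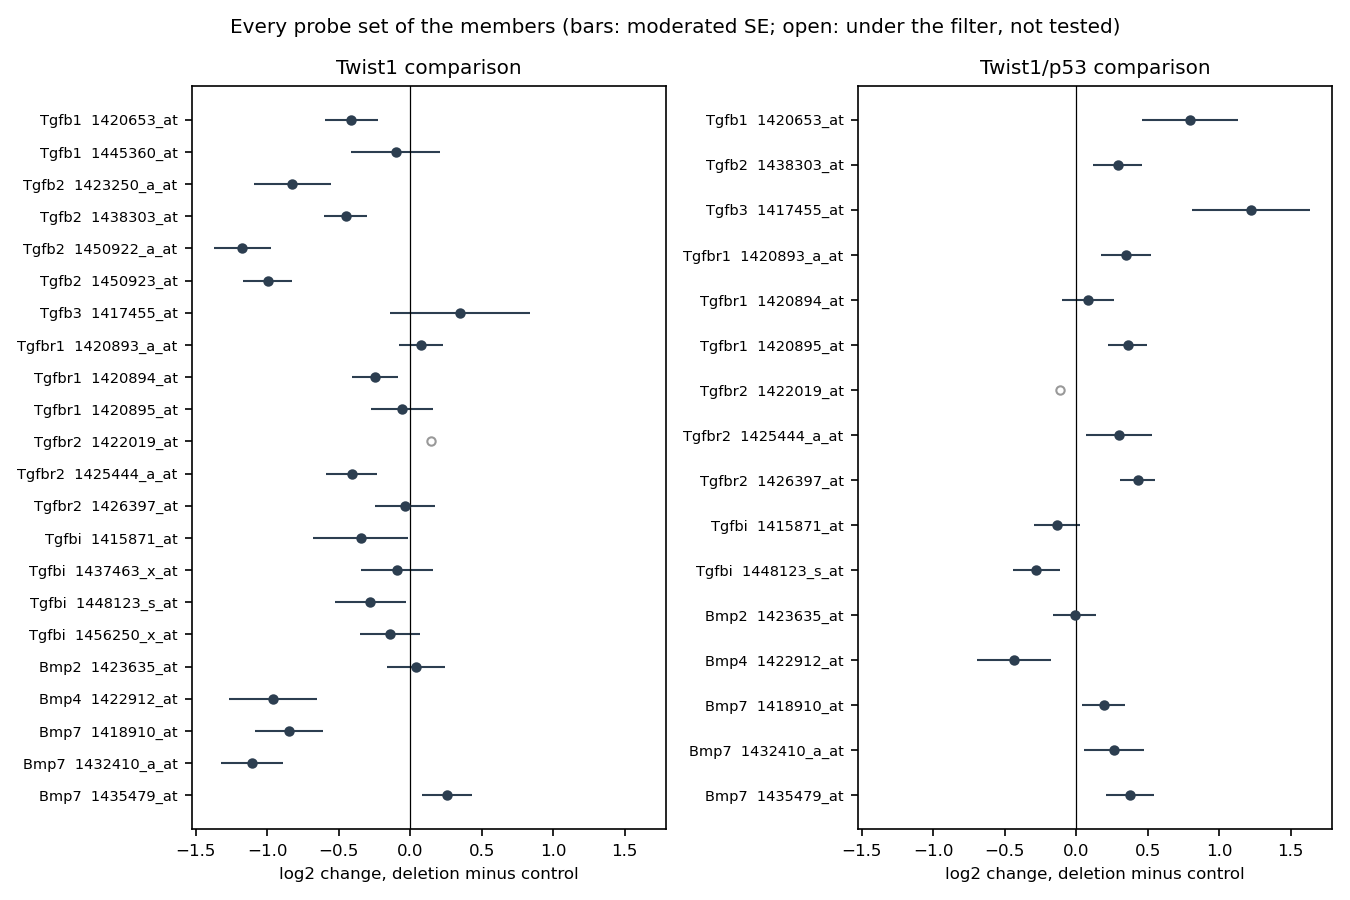
Log2 change, deletion minus control (horizontal axis), of every member probe set in the Twist1 comparison (22 probe sets) and the Twist1/p53 comparison (16 probe sets), with moderated standard errors as bars and the 1 Tgfbr2 probe set under the filter in each table shown as an unfilled point. The 4 Tgfb2 probe sets lie left of 0 in the Twist1 comparison, and the 3 Bmp7 probe sets there lie on both sides.

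By the probe sets that represent them, the receptor genes overlapped between the groups after Twist1 deletion and had higher means after Twist1/p53 deletion, again without passing. Tgfbr2, which encodes the ligand-binding kinase, gave 10.07 and 10.06 without Cre in the Twist1 table but 9.76 and 10.30 with it (-0.04, SE 0.21, adjusted p = 0.969), with the deletion arrays on either side. After Twist1/p53 deletion it read 8.82 and 8.88 against 9.36 and 9.21, a change of 0.43 (SE 0.12) with the lowest adjusted p of any member there (0.150). Tgfbr1, the signalling partner, read 9.50 and 9.01 against 9.08 and 9.32 in the Twist1 table (-0.06, SE 0.21, adjusted p = 0.951). With p53 deleted as well it read 7.77 and 7.73 against 8.06 and 8.16 (0.36, SE 0.13, adjusted p = 0.225). Both deletion arrays lay above both controls for either receptor there. Without deletion array 1 the changes were 0.35 (Tgfbr2) and 0.42 (Tgfbr1), and without deletion array 2 they were 0.51 (Tgfbr2) and 0.31 (Tgfbr1). The receptor probe sets were not alike. Those of Tgfbr1 differed by 0.08, -0.25 and -0.06 in the Twist1 table and by 0.35, 0.08 and 0.36 in the Twist1/p53 table. A further Tgfbr2 probe set, 1425444_a_at, had both Twist1 deletion arrays below both controls, at 6.48 and 6.33 against 6.04 and 5.96 (-0.41, SE 0.18, adjusted p = 0.572), and overlapped in the Twist1/p53 table (0.30, SE 0.23). With the mean over the probe sets the Twist1/p53 change of Tgfbr2 was 0.21. The remaining Tgfbr2 probe set, at 3.14 to 3.63 over the 8 arrays, lay under the filter in both.

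Tgfbi encodes a secreted matrix protein whose gene TGF-beta induces, and it stands here as a readout. By the probe set that represents the gene, its means were lower by almost the same amount in both comparisons. The probe set gave 12.42 and 12.27 without Cre in the Twist1 table but 11.70 and 12.44 with it, overlapping (-0.28, SE 0.26, adjusted p = 0.756). It read 11.63 and 11.66 against 11.61 and 11.13 after the double deletion (-0.28, SE 0.17, adjusted p = 0.417), where the difference came mostly from deletion array 2. Without deletion array 1 the change was -0.52, and without array 2 it was -0.04. All 4 Tgfbi probe sets of the Twist1 table and both of the Twist1/p53 table had lower means in the deletion arrays, by -0.35 at most. The other probe set named Tgfbi in both tables, 1415871_at, differed by -0.35 (Twist1) and -0.13 (Twist1/p53), so its changes were less alike.

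Of the BMP ligands, Bmp4 had the largest difference after Twist1 deletion among the probe sets that represent the 9 members; single probe sets of Tgfb2 and Bmp7 differed more. BMP4 is a growth factor of the dermal papilla and of epidermal differentiation. Its probe set gave 6.86 and 6.21 without Cre but 5.28 and 5.87 with it, which do not overlap, a 1.94-fold lower mean (-0.96, SE 0.32, adjusted p = 0.523). Without control 1 the change was -0.63 and without control 2 it was -1.28. The double deletion gave 5.59 and 5.53 against 5.48 and 4.77 (-0.43, SE 0.26, adjusted p = 0.416). Array 2 of that deletion group held most of the difference: without array 1 the change was -0.78, and without array 2 it was -0.08. The mean of the fibroblast markers was also lowest in that array, at 5.12 against 6.06 to 6.25 in the other 3. Col1a1 read 6.84 and Col3a1 6.44 there, while Dcn read 5.85, above its controls (5.04 and 4.92). In the Twist1 table the fibroblast means of the groups overlapped. The part of fibroblasts in the Bmp4 signal was not tested.

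Bmp2, a ligand of the follicle and the interfollicular epidermis, had 1 deletion array above and 1 below both controls in each table. It read 9.12 and 8.96 against 9.31 and 8.86 in the Twist1 table (0.04, SE 0.20, adjusted p = 0.964). Both Twist1/p53 controls read 9.71 and their deletion arrays 9.89 and 9.52 (-0.01, SE 0.15, adjusted p = 0.976). The limit on precision is the 2 arrays of each group.

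Bmp7, an epithelial BMP, gave opposite readings by probe set after Twist1 deletion. The probe set with the next highest level in that table, 1418910_at, gave 7.58 and 7.75 without Cre but 7.09 and 6.54 with it (-0.85, SE 0.24, adjusted p = 0.448). The probe set 1432410_a_at read 6.50 and 6.62 against 5.68 and 5.23 (-1.11, SE 0.22, adjusted p = 0.339). Both had every deletion array below every control. The probe set 1435479_at, which represents the gene by its level, had the reverse order, with 7.22 and 7.41 against 7.61 and 7.54 (0.26, SE 0.17, adjusted p = 0.671). With the mean over the 3 probe sets the gene's change was -0.56. After Twist1/p53 deletion all 3 were higher, by 0.19, 0.26 and 0.38, with the first of them reading 7.57 and 7.58 against 7.87 and 7.66.

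Whether the members changed differently in the 2 deletions was tested by subtracting the Twist1 change from the Twist1/p53 change over all 8 arrays and 13296 genes matched by probe set. Of those genes 0.173% were called, no member among them. The difference was 1.20 for Tgfb1 (SE 0.42, adjusted p = 0.396). It was 1.04 for Bmp7 by the probe set 1418910_at (SE 0.30, adjusted p = 0.311), whereas 1435479_at was higher in both comparisons, by 0.26 and 0.38, and 0.74 for Tgfb2 by the probe set 1438303_at (SE 0.21, adjusted p = 0.309). These 3 had unadjusted p-values of 0.0231, 0.00969 and 0.0096, beside 10.4% of all genes with one under 0.05. In each of them both Twist1 deletion arrays lay below both of their controls and both Twist1/p53 deletion arrays above theirs. The Tgfb2 probe set 1438303_at had the lowest level of the 4 in the Twist1 table. It read 5.06 and 5.13 against 4.65 and 4.64 there, near the gene filter level of 4.49. Tgfb3 (0.88, SE 0.76), Bmp4 (0.52, SE 0.46), Tgfbr2 (0.47, SE 0.25) and Tgfbr1 (0.42, SE 0.26) also had positive differences, Bmp2 (-0.05, SE 0.27) was near 0 and Tgfbi (-0.000599, SE 0.35) likewise. The arrays of the 2 tables differ in type as well as in genotype, and the 2 cannot be told apart in this test.

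The start regions of 3 members are printed because these, by the probe set that represents the gene, had groups that did not overlap with lower means after loss of Twist1, a factor that binds E-boxes of the form CANNTG. RefSeq sequences of assembly GRCm38.p6 were matched by symbol for 6 of the 9 members, with the 250 bases before the start. They are given 5′ to 3′ on the gene's strand, with every CANNTG in capitals. Tgfb1 lies at chr7:25686752-25687001 (+ strand), Tgfb2 at chr1:186705990-186706239 (- strand) and Bmp4 at chr14:46390670-46390919 (- strand).
Tgfb1: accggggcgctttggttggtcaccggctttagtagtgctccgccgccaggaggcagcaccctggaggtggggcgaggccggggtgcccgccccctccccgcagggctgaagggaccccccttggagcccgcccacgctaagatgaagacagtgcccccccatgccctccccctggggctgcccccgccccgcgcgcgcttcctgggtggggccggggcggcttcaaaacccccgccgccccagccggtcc
Tgfb2: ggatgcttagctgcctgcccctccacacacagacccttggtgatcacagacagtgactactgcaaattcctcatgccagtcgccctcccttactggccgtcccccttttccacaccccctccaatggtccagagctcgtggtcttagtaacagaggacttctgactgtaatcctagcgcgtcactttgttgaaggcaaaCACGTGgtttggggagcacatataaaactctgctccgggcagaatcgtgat
Bmp4: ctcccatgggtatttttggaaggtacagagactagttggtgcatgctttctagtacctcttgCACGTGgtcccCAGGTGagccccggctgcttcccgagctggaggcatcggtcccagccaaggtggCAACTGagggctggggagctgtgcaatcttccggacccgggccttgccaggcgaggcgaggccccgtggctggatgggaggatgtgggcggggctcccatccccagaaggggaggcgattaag
The Tgfb1 window held no CANNTG. The Tgfb2 window held 1, a CACGTG that begins 51 bases before the start. The Bmp4 window held 3, a CACGTG that begins 188 bases before the start and others at 177 and 123 bases. Of all 32851 start regions of this length 66.2% held a CANNTG, a motif that can read the same on both strands and includes CACGTG, and 6.02% held CACGTG. Of the 7 start regions matched for 6 members, 3 held a CANNTG and 2 a CACGTG. The forms CATATG and CAGCTG were found in 0 of these 7, beside 3.46% and 13.0% of all start regions. A match is a description and not a site.

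The rest of the pathway was described through 86 further genes in 8 lists by role, of which 74 could be tested for Twist1 deletion and 68 for Twist1/p53 deletion. None was called after Twist1 deletion, where 12 had an unadjusted p under 0.05 (16.2% beside 9.17% of all genes), 10 of them higher and 2 lower beside 3.36% and 5.81% of all genes. After Twist1/p53 deletion 2 rose and none fell (2.94% called beside 1.80% of all genes, 1.18% rising), and 19 had an unadjusted p under 0.05 (27.9% beside 21.2%), 17 of them higher and 2 lower beside 9.79% and 11.4% of all genes. Control and deletion arrays were apart for 31 (41.9% beside 42.5% of all genes) and 42 (61.8% beside 54.3%). Their median log2 changes were 0.19 and 0.20, beside -0.03 and -0.02 over all genes. These lists were chosen with earlier results of these data known. Their shares and medians beside those of all genes are therefore a description and not a test.

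**Figure D3:**
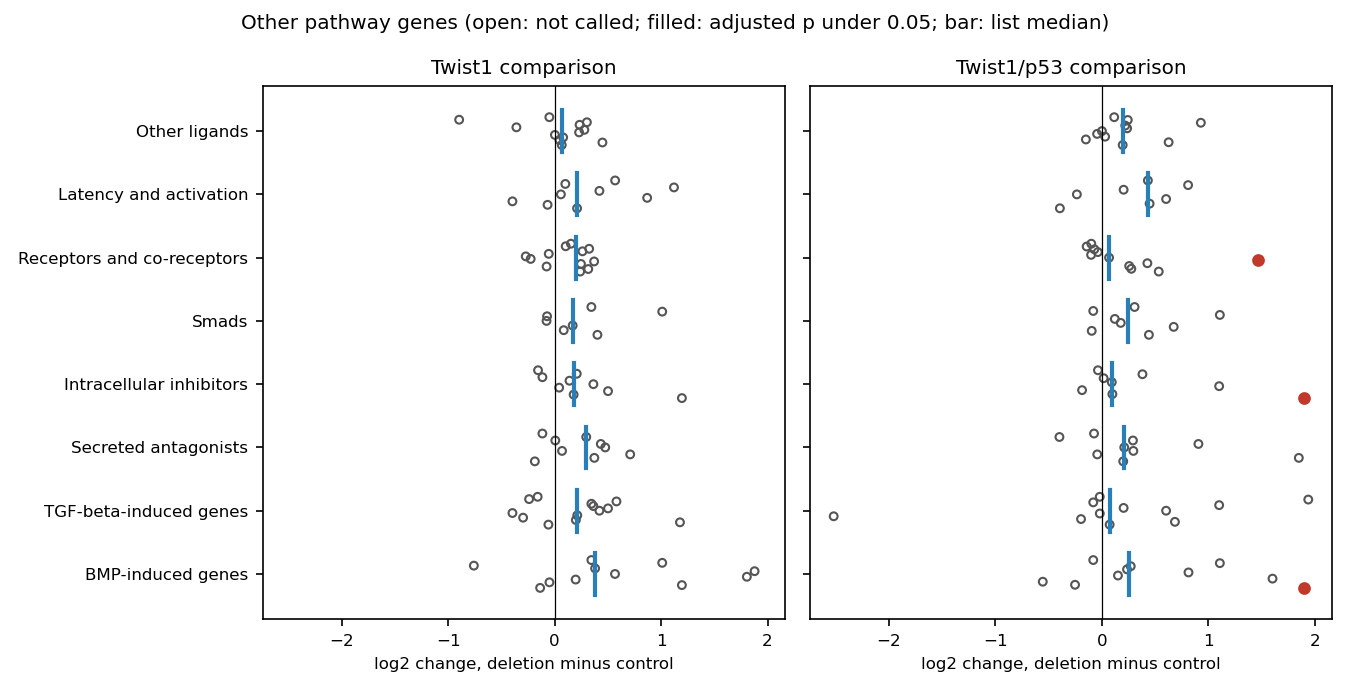
Log2 change, deletion minus control (horizontal axis), of the tested genes of 8 pathway lists in both comparisons, with open points for genes that were not called, filled points for called genes and a bar for each list's median. Bambi stands in both the inhibitor and the BMP-induced list; it and Acvrl1 are the 2 called genes, both in the Twist1/p53 comparison.

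Bambi and Acvrl1 were the 2 genes that rose after Twist1/p53 deletion. Bambi encodes a receptor-like protein without a kinase that blocks TGF-beta and BMP receptors and is itself induced by the pathway. It gave 5.03 and 5.25 without Cre but 7.05 and 7.02 with it, a 3.72-fold rise (log2 change 1.90, SE 0.16, adjusted p = 0.0212). In the Twist1 table it read 6.46 and 6.10 against 7.99 and 6.97 (1.20, SE 0.38, adjusted p = 0.519), without overlap. Acvrl1, the gene of the type I receptor ALK1 best known from endothelial cells, rose 2.77-fold from 4.95 and 5.20 to 6.60 and 6.49 (1.47, SE 0.16, adjusted p = 0.0347). In the same arrays the mean of 5 endothelial markers read 4.57 and 4.80 against 4.41 and 4.55. Of the 3 tested, 2 were lower without overlap, Cdh5 (5.15 and 5.55 against 4.55 and 4.97) and Kdr (5.08 and 5.83 against 4.78 and 4.94). The other, Pecam1, read 5.10 and 5.07 against 5.38 and 5.10. The part of endothelial cells in the Acvrl1 signal was not tested. Without control 1 or control 2 neither Bambi (1.78 and 2.01) nor Acvrl1 (1.35 and 1.60) passed. Acvrl1 did not pass with the mean over its probe sets (0.97, adjusted p = 0.0514). The difference between the deletions was 1.10 for Acvrl1 (SE 0.24, adjusted p = 0.214) and 0.70 for Bambi (SE 0.46, adjusted p = 0.658).

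**Figure D4:**
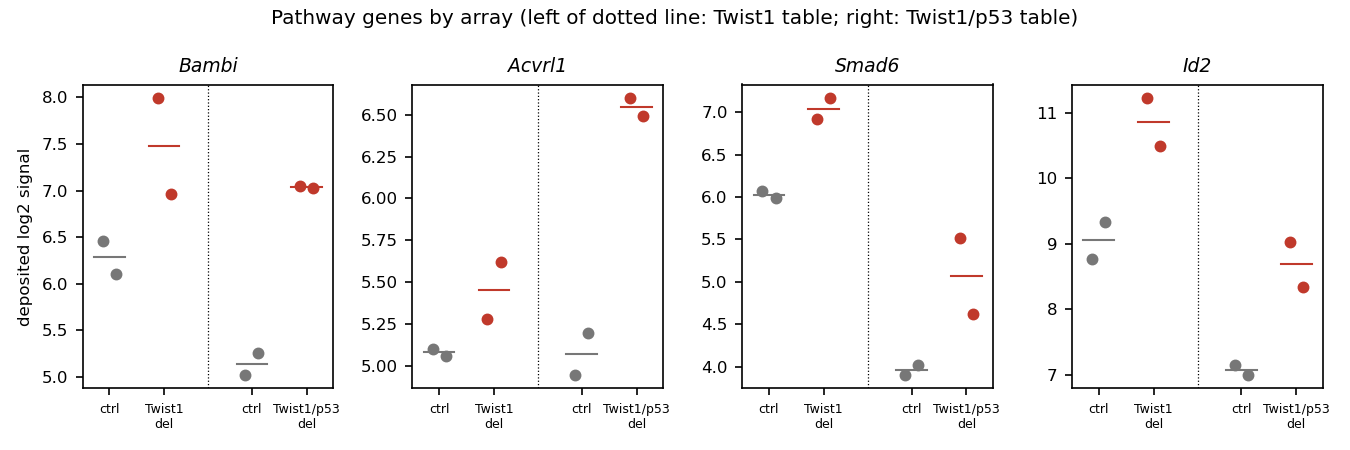
Deposited log2 signal (vertical axis, its range set for each gene) of Bambi, Acvrl1, Smad6 and Id2, 1 point per array, with controls in grey, deletion arrays in red and bars for the mean of 2 arrays, and the tables on either side of the dotted line. In all 4 genes every deletion array lies above both controls of its own table. Bambi and Acvrl1 were drawn as called genes, Smad6 and Id2 for the highest moderated t of a list, so this order is part of the choice. Controls and deletion arrays were apart in 42.5% (Twist1) and 54.3% (Twist1/p53) of all genes. The Smad6 controls of the Twist1/p53 table have a mean under the filter level.

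Among genes that BMP signals induce, 8 of the 11 tested had higher means after Twist1 deletion (median 0.38) and 7 of 10 after Twist1/p53 deletion (median 0.25), with 1 call, Bambi. Control and deletion arrays were apart for 8 of 11 and 6 of 10, beside 42.5% and 54.3% of all genes. Smad6, an inhibitory Smad of the BMP branch, read 6.07 and 5.99 against 6.92 and 7.16 in the Twist1 table (1.01, SE 0.18, adjusted p = 0.377), and 3.91 and 4.02 against 5.52 and 4.63 after the double deletion (1.11, SE 0.31, adjusted p = 0.157). Id2, an inhibitor of E proteins, read 8.77 and 9.33 against 11.22 and 10.50 (1.81, SE 0.31, adjusted p = 0.377), and 7.16 and 7.01 against 9.03 and 8.35 (1.60, SE 0.26, adjusted p = 0.0704). In the Twist1/p53 comparison the changes without deletion array 1 or 2 were 0.66 and 1.56 for Smad6, and 1.26 and 1.94 for Id2. The Smad6 control mean in that comparison, 3.97, lay under the filter level of 3.98. Smad6 therefore passed the filter there only through its deletion arrays, and its change is a description. Id1, the family member most often used as a BMP readout, read 10.61 and 10.40 against 10.78 and 10.62 after Twist1 deletion, higher without overlap (0.20, SE 0.14), and 8.52 and 8.46 against 8.49 and 7.38 after Twist1/p53 deletion, where array 2 holds the difference (-0.56, SE 0.39). Id1 was chosen after its values were seen. Msx2, a homeobox gene that BMPs induce, was the lowest of the list by moderated t after Twist1 deletion (-0.76, SE 0.29, adjusted p = 0.545), and the Notch and BMP target Hey1 after Twist1/p53 deletion (-0.25, SE 0.15, adjusted p = 0.405).

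The list of TGF-beta-induced genes had 8 of 13 higher means after Twist1 deletion (median 0.21) and 6 of 11 after Twist1/p53 deletion (median 0.07), with no call. Its extremes by moderated t in the second were the matrix gene Col1a1 (-2.52, SE 0.58, adjusted p = 0.116), also a fibroblast marker, and Timp1, an inhibitor of metalloproteinases, which lay higher in both deletion arrays (1.94, SE 0.47, adjusted p = 0.126). Without deletion array 1 or 2 the changes were -3.37 and -1.66 for Col1a1, and 1.26 and 2.61 for Timp1. The fibroblast marker Pdgfra, the antigen CD140a of the sort, was the only 1 of 7 fibroblast markers under the filter in the Twist1/p53 table. Col1a1 read 10.10 and 10.33 in the controls there. In the Twist1 table Pdgfra was past the filter, at 4.90 and 5.70 against 5.05 and 5.53. In the Twist1 comparison the extremes by moderated t, though not by the size of the change, were the smooth muscle gene Tagln (0.58, SE 0.18, adjusted p = 0.513) and Itgb6, a subunit of an integrin that releases latent TGF-beta (-0.40, SE 0.40, adjusted p = 0.770). The members of this list therefore lay on both sides of 0 in each comparison.

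The lists of ligand release and of secreted antagonists were without calls. Of 9 and 7 genes of latency and activation, 7 and 5 had higher means (medians 0.21 and 0.43). Ltbp3, a latent TGF-beta binding protein, was highest by moderated t in both, by different probe sets, with 8.62 and 9.30 against 9.96 and 10.21 (1.12, SE 0.26, adjusted p = 0.464) and 8.11 and 8.05 against 9.09 and 8.69 (0.81, SE 0.18, adjusted p = 0.108). The second of these changes was 0.61 without deletion array 1 and 1.01 without deletion array 2. Furin, the protease that cuts the precursors of these ligands, was the lowest by moderated t after Twist1/p53 deletion (-0.40, SE 0.10, adjusted p = 0.139). Its change was -0.34 without deletion array 1 and -0.45 without deletion array 2. Of the antagonists 7 of 9 and 6 of 9 were higher (medians 0.30 and 0.21). Fst, which encodes the activin and BMP binder follistatin, was highest by moderated t after Twist1 deletion at 11.50 and 11.70 against 12.33 and 12.28 (0.71, SE 0.12, adjusted p = 0.370), and Dcn, also one of the fibroblast markers, after Twist1/p53 deletion (1.85, SE 0.66, adjusted p = 0.216). Dcn was at 0.87 without deletion array 1 and 2.83 without deletion array 2. The lowest were the BMP antagonists Chrd (-0.19, SE 0.21) and Sostdc1 (-0.40, SE 0.22), and none of these passed with all arrays.

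The remaining receptor, Smad, inhibitor and ligand genes held Acvrl1 and Bambi as their calls; highest and lowest are by moderated t here, and other genes of a list can have larger changes. Receptors and co-receptors had 8 of 12 and 6 of 11 higher means (medians 0.20 and 0.07), with the BMP receptor Bmpr1a lowest after Twist1 deletion (-0.22, SE 0.14) and the co-receptor Rgmb after Twist1/p53 deletion (-0.14, SE 0.17). Smads had 5 of 7 and 6 of 8 higher (medians 0.17 and 0.24), with the shared Smad4 (-0.08, SE 0.12) and Smad2 of the TGF-beta branch (-0.10, SE 0.11) the lowest. Intracellular inhibitors had 7 of 9 and 6 of 8 higher (medians 0.18 and 0.10), with the corepressors Tgif2 (-0.16, SE 0.18) and Ski (-0.19, SE 0.10) lowest. Of the other ligands 9 of 12 and 8 of 11 were higher (medians 0.07 and 0.19). Lefty1, an inhibitor of Nodal signals, was lowest after Twist1 deletion (-0.90, SE 0.29, adjusted p = 0.521) and Gdf11 highest (0.23, SE 0.15), while Bmp6 was highest after Twist1/p53 deletion (0.63, SE 0.12, adjusted p = 0.0849) and Bmp8a lowest (-0.15, SE 0.23). Bmp6 was at 0.61 without deletion array 1 and 0.64 without deletion array 2.

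For the 5 members with an unadjusted p under 0.05 in a comparison, the genes with the nearest pattern over the 8 arrays were found as the smallest Euclidean distance between log2 values centred within each table, among 13295 other genes. Nearest to Tgfb2 by its shared probe set were the zinc finger genes Zfp697 (distance 0.15) and Zfp407 (0.21). Nearest to Tgfb3 were Csrp2, a LIM-domain protein of smooth muscle (0.42), and Glipr1 (0.50), and nearest to Bmp4 the fructose transporter gene Slc2a5 (0.33) and Mab21l4 (0.40). Tgfbr1 lay nearest to Klc1, a kinesin light chain (0.17), and Arhgap21 (0.18), and Tgfbr2 to the lipase gene Dagla (0.14) and the zinc transporter gene Slc39a10 (0.19). With 2 arrays in each group, such distances describe these arrays alone.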

How the data were processed

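Total RNA of sorted tumour epithelial cells was hybridised to 8 microarrays, deposited as 2 tables of log2 probe set signals. The scale was read from the values themselves (2.76 to 14.45, none negative); the labels do not say how the authors summarised or normalized them. Array medians were 5.42 to 5.44 (Twist1) and 4.81 to 4.82 (Twist1/p53). Levels were compared only within a table.

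Names came from the platform annotation (1 symbol for 34945 and 28864 probe sets, several for 932 and 551, none for 9160 and 15564, beside 64 and 104 control probe sets), with symbols updated by Entrez number. For gene tests, the probe set with the highest mean represented a gene, and genes under the 20th percentile were left out. Each deletion was fitted against its own controls with limma 3.58.1 in R 4.3.3 (lmFit, eBayes with intensity trend); all probe sets (36029 and 35983 past the filter) were also fitted singly, and the SE and adjusted p given for a probe set that does not represent its gene are from that fit. Simulated data in which 200 genes had a known change showed what these fits can call. At a log2 change of 1 they recovered 0% of those genes in each comparison and in the difference. At a log2 change of 2 they recovered 86% (Twist1), 84.5% (Twist1/p53) and 77% (difference). The members and lists were chosen with earlier results of these data known. Named genes are the members, the called genes of each list and those with the highest and lowest moderated t. Alternatives were other normalizations, filters, probe set rules, eBayes settings, a replicate block and leaving out each array.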

Additional observations from a re-analysis of the deposited data

How the results depend on the processing

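No member passed in either comparison or in the difference under any alternative that kept all 8 arrays. Among these, signs turned for Bmp7 (-0.56 with the mean over probe sets, Twist1 comparison), Bmp2 (0.00810 with quantile normalization, Twist1/p53 comparison, gene and probe set), Tgfbi (0.00783 in the difference, tables scaled to the same spread), Bmpr1a (0.00813, Twist1) and Smad2 (0.27, Twist1/p53), both with the mean over probe sets. Genes called in the Twist1 comparison numbered 1 with the filter at the 50th percentile, 3 with the mean over probe sets and 0 with the replicate block, and 12 with the filter at the 50th percentile in the difference. The replicate numbers of the titles share only a number: the deviations of same-numbered arrays correlated at 0.03 and -0.02. With the replicate block 4 genes were called in the Twist1/p53 comparison and 6 in the difference, and Bambi (adjusted p = 0.0881), Acvrl1 (adjusted p = 0.109) and Twist1 (adjusted p = 0.122) were not.

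Leaving out each array gave 0 to 56 genes called in the Twist1 comparison, 0 to 3775 in the Twist1/p53 comparison and 10 to 144 in the difference, and 0 to 5 members called in the Twist1/p53 comparison. Over these fits the Twist1 changes ranged from -0.30 to 0.19 (Tgfbr1), -0.30 to 0.23 (Tgfbr2), -0.65 to 0.10 (Tgfbi), -0.18 to 0.26 (Bmp2), -0.43 to 1.12 (Tgfb3), -0.41 to 0.0395 (Chrd) and -0.91 to 0.12 (Itgb6). The Twist1/p53 changes ranged from -0.20 to 0.17 (Bmp2) and -0.46 to 0.16 (Bmp8a), and the differences from -0.37 to 0.37 (Tgfbi) and -0.27 to 0.17 (Bmp2). Scanner files were not used here, so signal over background is unknown, and 2 arrays per group limit what can be called.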
